A study of Mus musculus with 48 samples.

Results

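NF-kB is a family of dimeric transcription factors, and the genes described here are its subunits and genes that regulate its activity. The set was chosen by gene symbol, with earlier results of these data known, and holds 10 genes: the subunits Nfkb1, Nfkb2, Rela, Relb and Rel, the IkB family members Nfkbia, Nfkbie and Nfkbiz, and Tnfaip3 and Birc3. The table analysed held 7 of the 10 among its 39637 genes, namely Nfkb1, Rela, Relb, Rel, Nfkbiz, Tnfaip3 and Birc3, and Nfkb2, Nfkbia and Nfkbie are not analysed here. All 7 passed the filter on low counts in every comparison. They were measured by RNA sequencing of 48 whole tumours that grew under the skin of female BALB/c mice aged 8 to 9 weeks. From each mouse 1 tumour was sequenced. The tumours came from injected AB1 cells, a mouse mesothelioma line, and were taken out on day 8, or from injected Renca cells, a mouse kidney cancer line, and were taken out on day 10. All mice were then to receive antibodies to CTLA4 and PDL-1, and every tumour dates from before that treatment. Mice were later classed as responders or non-responders, when the sequenced tumour had already been taken out. This gave 4 groups of 12: AB1 responders, AB1 non-responders, Renca responders and Renca non-responders. Each tumour type is thus 1 cell line in 1 mouse strain, and each library holds RNA of cancer cells together with RNA of the host cells in the tumour.

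In resting cells NF-kB dimers are held in the cytoplasm by IkB proteins. Signals from receptors of the TNF, IL-1 and Toll-like families activate a kinase complex that marks IkB for degradation, and the freed dimers of Rela, Rel and the p50 product of Nfkb1 enter the nucleus. Relb acts mainly in a slower, noncanonical branch. NF-kB also turns on genes that switch it off again, and Tnfaip3, which encodes the ubiquitin-editing enzyme A20, is a classical example of such feedback. In tumours the pathway is active in immune cells as well as in cancer cells.

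Promoter windows from RefSeq (GRCm38.p6), running from 250 bases before to 50 bases after a transcription start, were matched by symbol for 4 of the 7 genes, namely Tnfaip3, Rel, Rela and Birc3. Nfkb1, Relb and Nfkbiz had no entry. The windows were searched on both strands for the kappaB decamer, the classical 10-base consensus to which NF-kB dimers bind, and 8.46% of the 32851 windows of this length held at least 1 match. The upstream stretches of Tnfaip3, Rel and Birc3 outside annotated exons are shown because Tnfaip3 and Birc3 had the largest differences in AB1, and because Tnfaip3 and Rel were high together in the same Renca tumours. Each is given 5′ to 3′ on the gene's own strand, and capitals mark kappaB decamers.
Tnfaip3, chr10:19015411-19015547, minus strand: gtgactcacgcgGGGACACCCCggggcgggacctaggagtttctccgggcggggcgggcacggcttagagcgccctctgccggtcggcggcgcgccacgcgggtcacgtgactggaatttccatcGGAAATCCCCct
Rel, chr11:23770971-23771219, minus strand: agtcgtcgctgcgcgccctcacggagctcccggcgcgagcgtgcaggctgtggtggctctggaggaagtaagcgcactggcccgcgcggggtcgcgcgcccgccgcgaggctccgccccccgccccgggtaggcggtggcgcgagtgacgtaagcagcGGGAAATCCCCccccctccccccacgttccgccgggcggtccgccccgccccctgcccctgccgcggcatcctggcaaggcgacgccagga
Birc3, chr9:7873187-7873420, minus strand: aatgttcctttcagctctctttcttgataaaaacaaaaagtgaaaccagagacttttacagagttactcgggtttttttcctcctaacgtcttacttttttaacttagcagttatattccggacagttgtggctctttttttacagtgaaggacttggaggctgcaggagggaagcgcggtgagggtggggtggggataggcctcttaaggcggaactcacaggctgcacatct
The Tnfaip3 stretch held 2 matches, GGGACACCCC beginning 125 bases before the start and GGAAATCCCC beginning 12 bases before it. Positions count from the RefSeq start. By the gene bounds given below, 19000910 to 19015657, the Tnfaip3 stretch lies inside the gene but outside its annotated exons. A further window, for a downstream start of Tnfaip3, held none. In Rel, GGGAAATCCC and GGAAATCCCC began 92 and 91 bases before the start, so they overlap and form the run GGGAAATCCCC. The windows of Rela and Birc3 held no match, which says only that these letters are not in those windows. TATAAA, the core of the TATA box, was searched in the same way: it occurred in 13.6% of all windows and, among these genes, once in 1 window, that of Tnfaip3, with no overlap with a kappaB decamer.

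The libraries held between 16.4 and 27.8 M counts each. Levels are given in CPM, counts scaled to a common library size with TMM factors. Labels were checked against marker lists. The list of renal tubule genes summed to 221 to 487 CPM over all Renca tumours and 13.6 to 34.6 CPM over all AB1 tumours, whereas the mesothelial list was nearly silent in AB1 tumours, at 0.25 to 9.01 CPM. The 13 pan-leukocyte genes analysed, such as Ptprc, were all higher in responders of both tumours. Their summed level was 3244 to 7211 CPM in AB1 responders, 1811 to 3263 in AB1 non-responders, 2335 to 3777 in Renca responders and 1785 to 2876 in Renca non-responders. No gene of that list was at 0 throughout a group. T cell markers were higher in responders for 11 of 11 genes in AB1 and 10 of 11 in Renca, and NK cell markers for 7 of 7 and 6 of 6. Macrophage and monocyte markers were higher for 8 of 9 and 6 of 9, and neutrophil markers for 6 of 6 and 2 of 6. For dendritic cell markers the counts were 6 of 7 and 4 of 7, and for B cell markers only 1 of 5 and 0 of 6. Of all genes tested, 29.6% were called higher and 30.1% lower in AB1 responders, and 11.6% and 8.01% in Renca responders. Fibroblast markers were lower in AB1 responders for 5 of 6 genes and did not pass in Renca. Renal tubule markers were lower in Renca responders for 4 of 5 genes tested, with a summed level of 221 to 379 CPM against 329 to 487 in Renca non-responders. The part of these cell types in the results below was not tested beyond the fits with a leukocyte score. In bulk tumours such as these, fewer cells of a type and less RNA per cell cannot be told apart. RNA purity differed as well: the absorbance ratio that is lowered by leftover salts and solvents was 1.08 to 2.22 in AB1 non-responders and 2.02 to 2.35 in AB1 responders. In Renca it was 1.85 to 2.22 in non-responders and 1.69 to 2.16 in responders. Its part in the results was not tested beyond the covariate fits given below.

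In AB1 tumours all 7 NF-kB genes were higher in later responders. The largest differences were those of Tnfaip3 and Birc3, whose mean levels were 2.33 and 2.02 times those of non-responders, and the smallest were those of Rela and Nfkb1, at 1.26 and 1.28 times. All 7 passed edgeR's quasi-likelihood test at an adjusted p under 0.05 (Benjamini-Hochberg over all genes tested), with a median log2 fold change of 0.73. The background of that comparison was wide: of 15388 genes tested, 29.6% were called higher in responders and 30.1% lower, 59.7% in all, with a median log2 fold change of -0.02. In Renca tumours 5 of the 7 were higher in responders and none was lower. Relb, Rel, Nfkbiz, Tnfaip3 and Birc3 passed, Nfkb1 and Rela did not, and the median log2 fold change was 0.31. There, 11.6% of 15409 genes were called higher and 8.01% lower, 19.6% in all, with a median of -0.01.

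**Figure D1:**
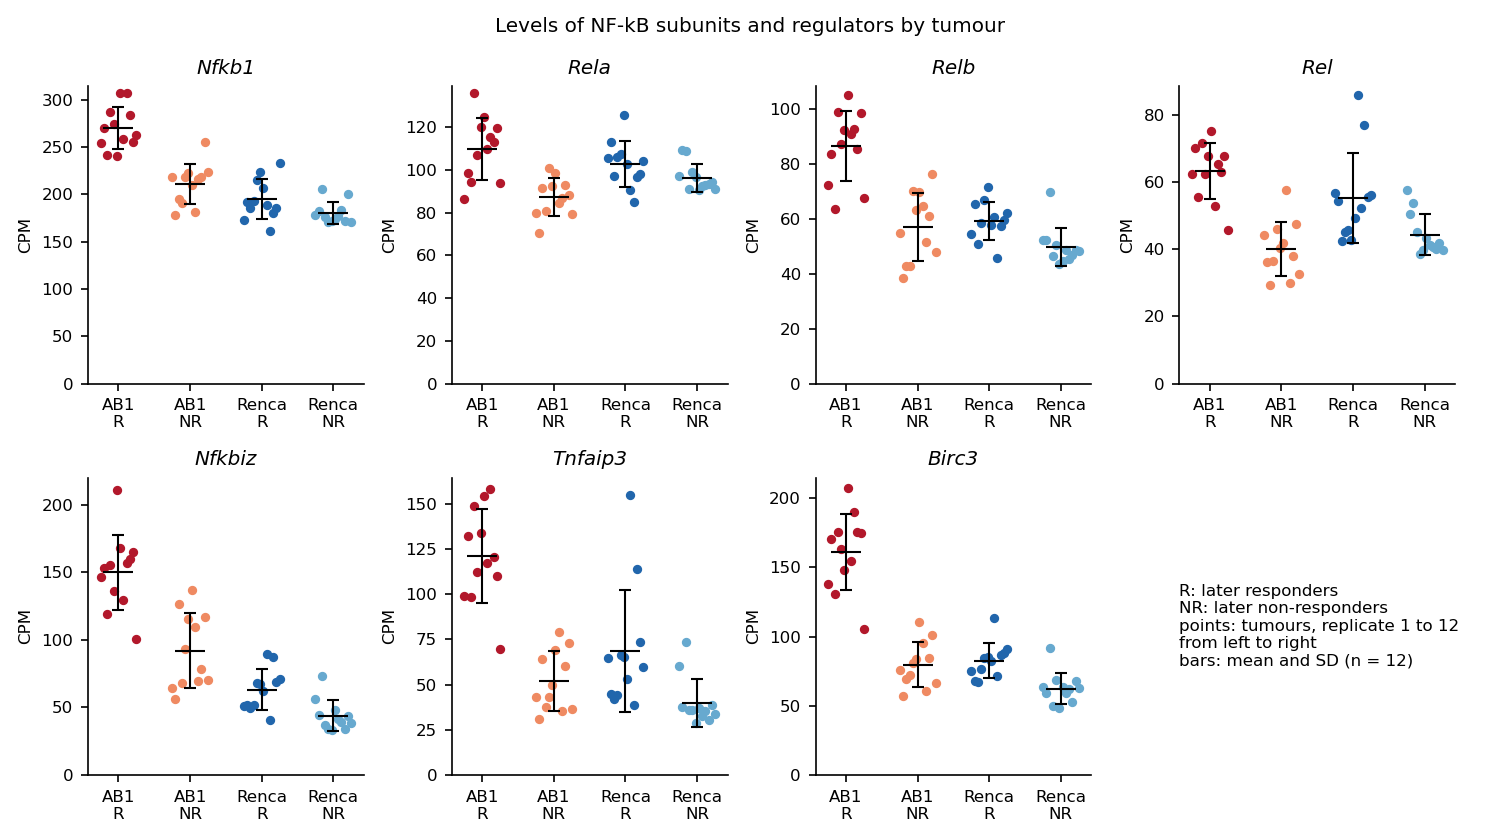
Level of each of the 7 genes in each tumour, in CPM on a linear axis from 0, by group (R, later responders; NR, later non-responders; points run from replicate 1 on the left to 12 on the right; bars are mean and SD, n = 12). AB1 responders have the highest mean for every gene, and Renca responders 8 and 10 stand above the rest of their group for Rel, Nfkbiz and Tnfaip3.

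Nfkb1 (ENSMUSG00000028163, chromosome 3, 135584655 to 135691547, minus strand) encodes p105 and its product p50, the DNA-binding partner in most canonical dimers. The predicted gene Gm43430 overlaps it on the same strand and had at most 0.30 CPM in any tumour. It was at 241, 266 and 307 CPM (lowest, median and highest) in AB1 responders and at 179, 217 and 256 CPM in AB1 non-responders. All 12 responders lay above the non-responder median and 8 of 12 above every non-responder, so the groups overlapped only where non-responder 11, the highest of its group, reached into the responder range. The log2 fold change was 0.42 ± 0.06 (SE; adjusted p = 1.57e-06). In Renca tumours the same 3 values were 161, 190.5 and 234 CPM in responders and 171, 177 and 206 CPM in non-responders. These groups overlapped widely, since responder 9 was lower than every non-responder, and the log2 fold change of 0.12 ± 0.05 did not pass (adjusted p = 0.0934).

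Rela (ENSMUSG00000024927, chromosome 19, 5637483 to 5648130, plus strand) encodes p65, the main transactivating subunit. Its lowest, median and highest levels were 86.4, 111 and 136 CPM in AB1 responders and 70.6, 87.7 and 101 CPM in AB1 non-responders. Of the 12 responders, 11 were above the non-responder median, and replicate 1 was not. Responders differed from non-responders by 0.39 ± 0.07 on the log2 scale (adjusted p = 5.07e-05). Renca responders were at 84.7, 103 and 126 CPM and Renca non-responders at 90.5, 93.8 and 109 CPM. The lowest Renca value was that of a responder, 10 of 12 responders exceeded the non-responder median, and the log2 fold change of 0.10 ± 0.04 did not pass (adjusted p = 0.0794).

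Relb (ENSMUSG00000002983, chromosome 7, 19606217 to 19629438, minus strand) is the subunit of the noncanonical branch. It was at 63.6, 88.9 and 105 CPM in AB1 responders and at 38.5, 57.9 and 76.1 CPM in AB1 non-responders. Of the responders, 9 of 12 lay above every non-responder, and the log2 fold change was 0.67 ± 0.10 (adjusted p = 9.95e-06). In Renca, responders were at 45.9, 59.0 and 71.6 CPM and non-responders at 43.7, 48.4 and 69.6 CPM. Non-responder 3 was the highest of its group and only 1 responder exceeded it, while 11 of 12 responders were above the non-responder median. Even so, the log2 fold change of 0.26 ± 0.07 passed (adjusted p = 0.00898).

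Rel (ENSMUSG00000020275, chromosome 11, 23736847 to 23770970, minus strand) encodes c-Rel, a subunit found mostly in lymphoid and myeloid cells. Levels in AB1 responders were 45.6, 64.1 and 75.1 CPM and in AB1 non-responders 29.4, 39.1 and 57.4 CPM. All 12 responders exceeded the non-responder median and 9 of 12 exceeded every non-responder. On the log2 scale the difference was 0.73 ± 0.10 (adjusted p = 3.58e-06). In Renca, responders were at 42.5, 53.2 and 85.7 CPM and non-responders at 38.7, 41.6 and 57.5 CPM. Every responder lay above the non-responder median, but only replicates 8 and 10 lay above every non-responder. The log2 fold change of 0.31 ± 0.10 was close to the threshold (adjusted p = 0.0371), and with the 12 lane-sharing pairs as a block it was 0.30 (adjusted p = 0.0591), which did not pass.

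Nfkbiz (ENSMUSG00000035356, chromosome 16, 55811375 to 55838899, minus strand) encodes IkB-zeta, a nuclear IkB protein that modulates NF-kB at a subset of target genes. It was at 101, 154 and 211 CPM in AB1 responders and at 56.4, 85.6 and 137 CPM in AB1 non-responders. All 12 responders were above the non-responder median and 8 of 12 above every non-responder, and responder 6 was the highest of all 48 tumours. This corresponds to a log2 fold change of 0.77 ± 0.15 (adjusted p = 8.99e-05). Renca tumours had lower levels, 40.4, 64.5 and 89.6 CPM in responders and 33.7, 40.6 and 73.5 CPM in non-responders. There 11 of 12 responders exceeded the non-responder median and 2 exceeded every non-responder. Its Renca log2 fold change was 0.54 ± 0.14 (adjusted p = 0.00929).

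Tnfaip3 (ENSMUSG00000019850, chromosome 10, 19000910 to 19015657, minus strand) encodes A20. Its levels were 69.5, 119 and 158 CPM in AB1 responders and 30.7, 46.4 and 79.1 CPM in AB1 non-responders. Of the responders, 11 of 12 lay above every non-responder, and the exception was replicate 12. The log2 fold change of 1.29 ± 0.16 was the largest of the 7 genes (adjusted p = 7.96e-07). Renca responders were at 38.6, 62.2 and 155 CPM and Renca non-responders at 28.5, 35.9 and 73.8 CPM. All 12 Renca responders exceeded the non-responder median, with responders 8 and 10 far above the others. Its Renca log2 fold change was 0.76 ± 0.21 (adjusted p = 0.0151).

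Birc3 (ENSMUSG00000032000, chromosome 9, 7848699 to 7873186, minus strand) encodes c-IAP2, a ubiquitin ligase of the TNF receptor complex and an inhibitor of cell death. It was at 105, 167 and 207 CPM in AB1 responders and at 56.8, 78.3 and 110.2 CPM in AB1 non-responders. As for Tnfaip3, 11 of 12 responders lay above every non-responder and replicate 12 did not. The log2 fold change was 1.08 ± 0.11 (adjusted p = 2.97e-07). In Renca, responders were at 67, 83.3 and 113 CPM and non-responders at 48.5, 62.7 and 91.6 CPM. All 12 responders exceeded the non-responder median, only responder 8 exceeded every non-responder, and the log2 fold change was 0.41 ± 0.09 (adjusted p = 0.00462). Birc2, the close relative of Birc3 that encodes c-IAP1, had a log2 fold change of 0.59 ± 0.08 in AB1 and 0.20 ± 0.06 in Renca (adjusted p = 2.40e-06 and 0.0262). Reads shared by Birc2 and Birc3 could have been divided between them by the authors' counting.

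The responder and non-responder ranges overlapped for all 7 genes in both tumours. Among all genes tested in AB1, every responder was above every non-responder for 1.98%, and every responder was above the non-responder median for 16.1%. The latter held for 6 of the 7 genes, all but Rela. In Renca these shares were 0.0% and 5.64%, and every responder exceeded the non-responder median for Rel, Tnfaip3 and Birc3. A few tumours recurred at the edges. AB1 responder 12 was the lowest of its group for Rel, Nfkbiz, Tnfaip3 and Birc3 and had the lowest leukocyte score of the AB1 responders, and AB1 non-responder 2 was the lowest of its group for every gene but Rel. Renca non-responder 3 was the highest of its group for Nfkb1, Relb, Nfkbiz, Tnfaip3 and Birc3 and had the highest leukocyte score of its group. Without it, or without Renca responder 9, Nfkb1 and Rela passed in Renca as well: the adjusted p was 0.0365 and 0.0384 without non-responder 3, and 0.0306 and 0.0249 without responder 9.

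The response difference was larger in AB1 than in Renca for 5 of the 7 genes, by the test of that difference over all 48 tumours. The gap was widest for Birc3, at 0.62 ± 0.14 on the log2 scale (adjusted p = 0.000402). Among the subunits, the gap passed for Nfkb1 at 0.25 ± 0.07 (adjusted p = 0.00662), for Rela at 0.24 ± 0.08 (adjusted p = 0.0114) and for Relb at 0.36 ± 0.12 (adjusted p = 0.0152). Rel, at 0.36 ± 0.15, was just past the threshold (adjusted p = 0.0448), and it missed it in 25 of the 48 fits that each left out 1 tumour. For Nfkbiz and Tnfaip3 the test did not pass, with gaps of 0.18 ± 0.20 (adjusted p = 0.473) and 0.48 ± 0.27 (adjusted p = 0.14). Among the 16509 genes tested, 18.5% had a response effect more positive in AB1 and 26.6% one more positive in Renca, 45.1% in all. The median gap was 0.36 over the 7 genes and -0.07 over all genes.

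Between the tumour lines, with response as a term, 5 of the 7 genes were higher in AB1 and none was higher in Renca. Nfkbiz differed most, by 1.16 ± 0.10 on the log2 scale (adjusted p = 8.26e-15). Birc3 followed at 0.66 ± 0.08 (adjusted p = 1.06e-09), Tnfaip3 at 0.60 ± 0.14 (adjusted p = 9.50e-05), Relb at 0.37 ± 0.07 (adjusted p = 4.77e-06) and Nfkb1 at 0.35 ± 0.04 (adjusted p = 1.36e-10). Rela and Rel differed by -0.02 ± 0.05 and 0.02 ± 0.08 and did not pass (adjusted p = 0.656 and 0.775). Most genes separated the lines: 42.1% of 16509 were higher in AB1 and 39.2% in Renca, 81.3% in all. Line, day of removal and sequencing flow cell cannot be told apart in this comparison. Among non-responders alone, where 38.3% of all genes were called higher in AB1 and 38.1% in Renca, only Nfkb1, Nfkbiz and Birc3 were higher in AB1, at 0.21, 1.07 and 0.34, and Rela was higher in Renca, at -0.16 ± 0.05 (adjusted p = 0.0071).

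The order of the 4 groups was therefore not the same for every gene. Mean Nfkbiz ran from AB1 responders (150.1 ± 27.8 CPM, SD, n = 12) through AB1 non-responders (92.0 ± 27.7) and Renca responders (63.2 ± 15.3) to Renca non-responders (43.7 ± 11.5), each step being larger than the SD of both neighbours. Nfkb1 kept that order, but only its first step, from 270.5 ± 22.5 to 211 ± 21.5 CPM, exceeded both SDs. Birc3, Tnfaip3 and Relb ran from AB1 responders through Renca responders and AB1 non-responders to Renca non-responders. For each of the 3, the step from AB1 to Renca responders exceeded both SDs (Birc3 from 161 ± 27.7 to 82.5 ± 12.6 CPM), whereas Renca responders and AB1 non-responders did not differ by that measure. Rela and Rel had their lowest mean in AB1 non-responders, at 87.2 ± 8.71 and 40.0 ± 8.10 CPM. No neighbouring step of Rel exceeded both SDs, and for Rela only that from Renca non-responders, at 96.3 ± 6.47 CPM, to AB1 non-responders did.

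Levels of different subunits can be compared only per length. On the RPKM scale, with the union of each gene's exons as length, Rela made up the largest part of the summed level of the 4 subunits, 44.5 ± 3.73% (SD, n = 48). Nfkb1 followed with 24.4 ± 2.46%, Relb with 21.9 ± 2.55% and Rel with 9.27 ± 1.76%. Rela ranged from 40.1 ± 1.78% in AB1 responders to 48.2 ± 1.45% in Renca non-responders, and Relb from 24.9 ± 1.44% to 19.6 ± 1.26% in the same groups. These shares depend on the length chosen, since the union of Nfkb1 exons is 12061 bases and its longest annotated transcript 4149 bases. With the longest transcript, Nfkb1 came first at 45.2 ± 3.24% and Rela second at 32.2 ± 3.27%. Which of Rela and Nfkb1 was the more abundant was thus not settled by these data. Rel had the lowest share under both lengths.

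Renca responders 8 and 10 stood apart from their group for Rel, Tnfaip3 and Nfkbiz. Rel was at 85.7 and 76.8 CPM in these tumours and at 42.5 to 56.6 CPM in the other 10 responders. Tnfaip3 was at 155 and 114 CPM against 38.6 to 73.6, and Nfkbiz at 89.6 and 87.7 CPM against 40.4 to 71.0. Rela, at 90.4 and 96.6 CPM, lay within the 84.7 to 126 CPM of the others, and so did Nfkb1, at 189 and 181 CPM against 161 to 234. Other genes moved with the high values: the cytokine genes Il1b (149 and 135 CPM against 33.0 to 93.2) and Osm (12.6 and 10.3 CPM against 3.27 to 8.18) and the immediate-early gene Fos (304 and 184 CPM against 39.2 to 104.5). The immediate-early genes Egr1 (123 and 142 CPM against 59.8 to 129) and Junb (163 and 131 CPM against 81.5 to 153) each exceeded the other responders in only 1 of these 2 tumours. These comparison genes were chosen after their values were seen. Osm and Il1b were also among the genes most like Rel over tumours that include responders 8 and 10, as given below. Their high values in tumours picked for high Rel are therefore not a separate observation. Responder 8 also had the highest leukocyte score of the Renca responders (7.88), and responder 10 had 7.50. Birc3 was at 113 and 87.0 CPM against 67 to 91.3. T cell markers summed to 643 and 496 CPM against 355 to 630, and the 7 neutrophil markers to 108 and 84.6 CPM against 59.9 to 97.5. Macrophage and dendritic cell sums lay within the range of the others. The absorbance ratio lowered by salts and solvents was 1.69 and 1.97 against 1.85 to 2.16. The part of leukocytes and RNA purity in the result was not tested. Both tumours were picked for their high Rel and Tnfaip3. Leaving them out therefore lowers the Renca effect of these genes and widens their gap by construction. Without both tumours 8.84% of all genes were called higher in Renca responders. The Renca log2 fold change of Rel was then 0.18 ± 0.08 (adjusted p = 0.107) and no longer passed. Tnfaip3 stood at 0.47 ± 0.15 (adjusted p = 0.0438), Nfkbiz at 0.42 ± 0.13 (adjusted p = 0.0346), Birc3 at 0.35 ± 0.09 (adjusted p = 0.0149) and Relb at 0.25 ± 0.07 (adjusted p = 0.0268). The gap between AB1 and Renca widened to 0.83 ± 0.22 for Tnfaip3, which then passed (adjusted p = 0.00249), and to 0.55 ± 0.13 for Rel (adjusted p = 0.000802).

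Both of these tumours were sequenced on the second of the Renca flow cells. The Renca differences of 5 genes were larger there than on the first, and those of Nfkb1 and Rela were not; whether the flow cells differed was not tested. With the first Renca flow cell alone, 6 tumours of each group, the log2 fold change was 0.01 for Rel, 0.27 for Tnfaip3, 0.29 for Nfkbiz, 0.26 for Birc3, 0.22 for Relb, 0.13 for Nfkb1 and 0.13 for Rela. None of the 7 passed there, and no gene of all tested was called higher (0.0%; 2803 genes were at an unadjusted p under 0.05) or lower. With the second, the same 7 values were 0.61, 1.25, 0.78, 0.54, 0.29, 0.11 and 0.07, and the first 5 of these genes passed, where 5.71% of all genes were called higher. In AB1 the 7 genes differed in the same direction on both flow cells. Their log2 fold changes were 0.36 to 1.48 on the first and 0.38 to 1.15 on the second, and all passed but Rela on the first (0.36, adjusted p = 0.0602). Of all genes, 19.5% were called higher on the first AB1 flow cell and 26.6% on the second. With the RNA absorbance ratios as covariates, all 7 still passed in AB1, at 0.35 to 1.20, where 28.4% of all genes were called higher. In Renca none of the 7 passed, at 0.11 to 0.49 (adjusted p from 0.0702 to 0.23), but only 0.876% of all genes were called higher in that fit.

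Leukocyte RNA moved with the NF-kB genes. The leukocyte score, the mean log2 CPM of the 13 pan-leukocyte genes, was 7.62 to 8.74 in AB1 responders and 6.55 to 7.57 in AB1 non-responders, ranges that did not overlap. In Renca it was 7.13 to 7.88 in responders and 6.74 to 7.44 in non-responders. With the score as a covariate none of the 7 genes passed in either tumour, and their log2 fold changes were -0.07 to 0.15 in AB1 and -0.03 to 0.09 in Renca (adjusted p = 1 for each). Tnfaip3 went from 1.29 ± 0.16 to 0.15 ± 0.25 in AB1 and from 0.76 ± 0.21 to -0.01 ± 0.21 in Renca, and Birc3 from 1.08 ± 0.11 to 0.12 ± 0.12 and from 0.41 ± 0.09 to 0.00 ± 0.05. In that fit no gene of all tested passed in either tumour by edgeR, with 223 in AB1 and 477 in Renca at an unadjusted p under 0.05. The score correlated with response at r = 0.89 in AB1 and 0.693 in Renca. With score and response so closely tied in AB1, the 2 cannot be told apart there, and the Renca fit is limited by the same kind of tie.

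**Figure D2:**
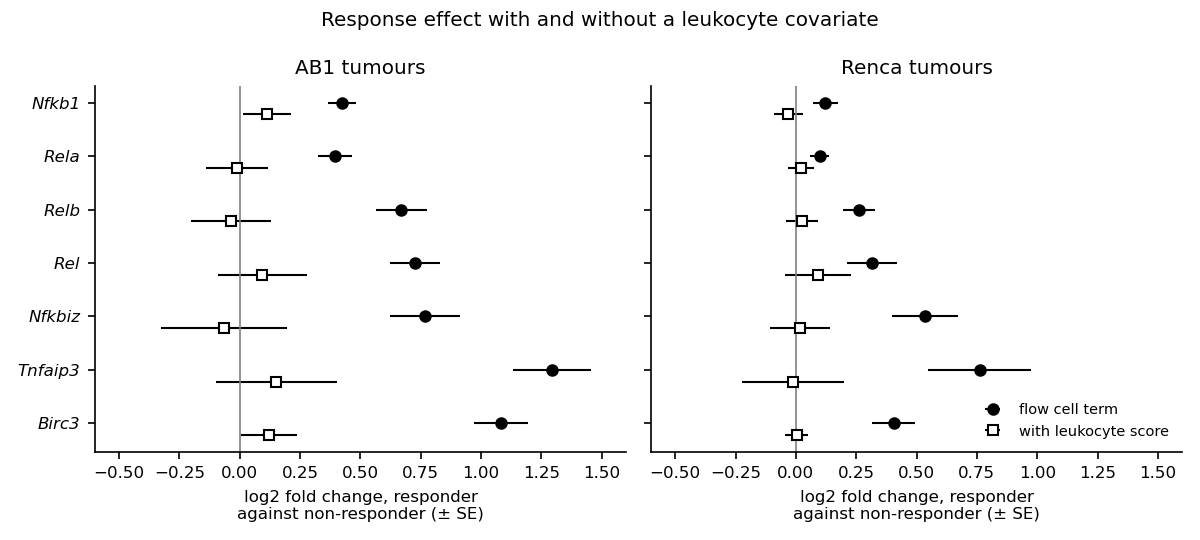
Log2 fold change of responders against non-responders for each gene (points, with SE), in AB1 on the left and Renca on the right, from the fit with a flow cell term (filled circles) and from the fit that adds the leukocyte score (open squares). The filled points run from 0.39 to 1.29 in AB1 and from 0.10 to 0.76 in Renca, and the open points lie between -0.07 and 0.15.

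The tie to leukocyte RNA was also measured within groups. After response and flow cell were removed, the level of Birc3 followed the leukocyte score with Pearson's r = 0.893 in AB1 (rho = 0.804) and r = 0.931 in Renca (rho = 0.921), n = 24 tumours each. All 4 had a permutation p of 1e-05, the smallest that 100000 resamples can give, and an adjusted p of 7e-05 over the 14 relations of 7 genes in 2 tumours. Without the 2 tumours farthest from the median score r was 0.805 and 0.885, and on the first and second flow cell it was 0.697 and 0.936 in AB1 and 0.966 and 0.924 in Renca. The other 6 genes had r from 0.516 to 0.736 in AB1, and all 6 passed. Those of Rel and Nfkbiz were less even: from 0.610 and 0.611 they went to 0.378 and 0.432 without the 2 farthest tumours, and to 0.264 and 0.330 on the first AB1 flow cell. For the other 4 (Nfkb1, Rela, Relb and Tnfaip3) r was 0.504 to 0.642 without the 2 farthest tumours and 0.437 to 0.806 within flow cells. In Renca, Nfkbiz, Relb, Tnfaip3 and Nfkb1 had r from 0.60 to 0.775 and passed, and r was 0.516 to 0.625 without the 2 farthest tumours and 0.530 to 0.848 within flow cells. Many genes followed the score: of 10922, 16.0% had an r at least as high as the lowest that passed in AB1 (0.516), and 11.1% one at least as high as the lowest that passed in Renca (0.60). In Renca, Rel did not pass (r = 0.405, permutation p = 0.05, adjusted p = 0.0539; rho = 0.279, p = 0.188), and its r was 0.07 without the 2 farthest tumours. Rela did not either (r = 0.394, permutation p = 0.0565, adjusted p = 0.0565; rho = 0.328, p = 0.117). Birc3 thus had the highest r of the 7 genes in both tumours. Differences between these r values were not tested.

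**Figure D3:**
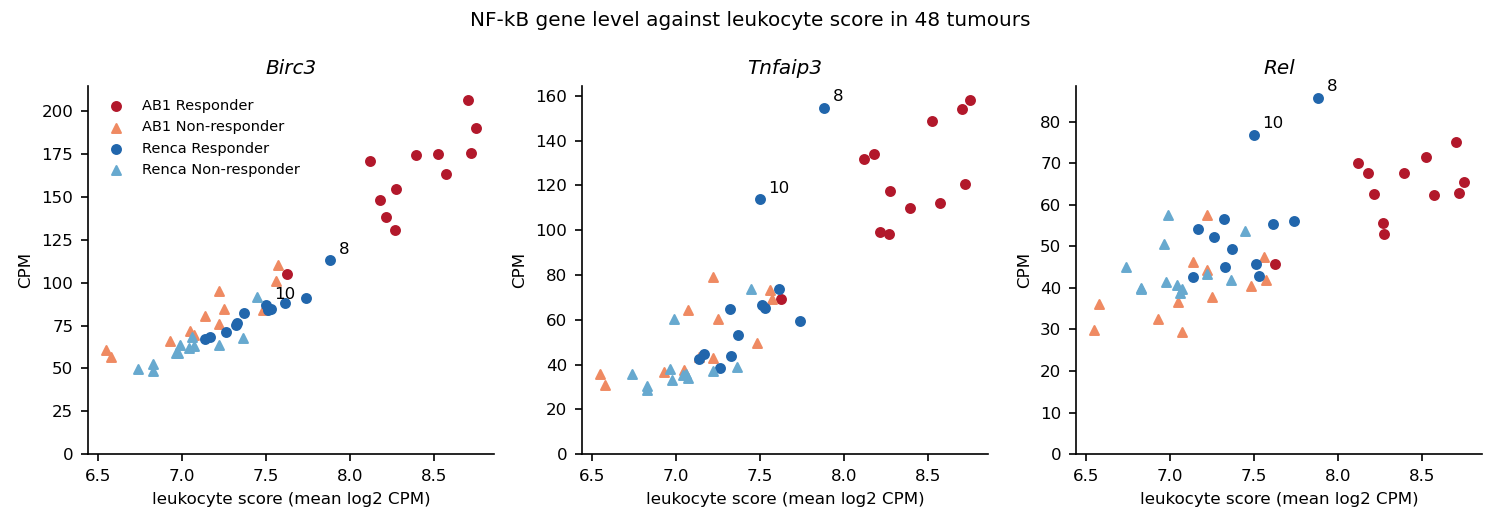
Level of Birc3, Tnfaip3 and Rel in CPM (vertical axes) against the leukocyte score in mean log2 CPM (horizontal axes) for 48 tumours, with a colour and shape for each group and with Renca responders 8 and 10 numbered. Birc3 rises with the score in both lines. With the score as a covariate it is still higher in AB1 than in Renca, by 0.25 ± 0.04 on the log2 scale (edgeR, adjusted p = 1.50e-07). Tumours 8 and 10 lie above the other Renca responders for Tnfaip3 and Rel, at 155 and 114 CPM and at 85.7 and 76.8 CPM.

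The NF-kB genes also varied together within groups. Of the 42 relations between pairs of them (21 in each tumour), 30 passed an adjusted permutation p of 0.05, 16 in AB1 and 14 in Renca, all with r above 0. As background, of all 59639581 pairs among 10922 genes, 12.3% reached the lowest r that passed in AB1 (0.440) and 5.79% the lowest that passed in Renca (0.494). Relations among these 7 genes without the leukocyte score were not tested. The median r was 0.590 in AB1 and 0.595 in Renca. Nfkbiz and Tnfaip3 in Renca had the highest r, 0.893 (permutation p = 1e-05, adjusted p = 9.33e-05; rho = 0.803, p = 2e-05). It was 0.857 without the 2 tumours farthest from the median residual of Nfkbiz, and 0.905 and 0.879 on the first and second flow cell. In every pair the 2 farthest tumours were picked by 1 gene alone, the earlier in the order Nfkb1, Rela, Relb, Rel, Nfkbiz, Tnfaip3, Birc3. Outliers of the other gene could stay in. In AB1 the highest was that of Tnfaip3 and Birc3, 0.846 (permutation p = 1e-05, adjusted p = 9.33e-05; rho = 0.787, p = 2e-05), with 0.794 without the 2 farthest tumours and 0.628 and 0.910 on the flow cells. The promoter stretches of Rel and Tnfaip3 were printed partly because both genes were high in the same Renca tumours. Whether their kappaB decamers have a part in the relation of this pair was not tested. Rel and Tnfaip3 had r = 0.822 in Renca (permutation p = 3e-05, adjusted p = 0.000115, with rho = 0.559, p = 0.00512). That r was 0.677 without the 2 farthest tumours, and 0.598 and 0.932 on the flow cells. In AB1 the same pair had r = 0.638 (permutation p = 0.0008, adjusted p = 0.00177; rho = 0.608, p = 0.00207). It rested on the second AB1 flow cell, with r = 0.881 there and -0.04 on the first, and was 0.465 without the 2 farthest tumours.

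The subunits were less uniform. Relb and Rel had r = 0.778 in AB1 (permutation p = 2e-05, adjusted p = 9.33e-05; rho = 0.850, p = 1e-05), with 0.733 without the 2 farthest tumours and 0.808 and 0.809 on the flow cells. In Renca the same pair had r = 0.298 (permutation p = 0.158, adjusted p = 0.189; rho = 0.152, p = 0.475). Relb and Rela had r = 0.712 in AB1 and 0.734 in Renca, and both passed (permutation p = 8e-05 and 6e-05, adjusted p = 0.00024 and 0.000194). Without the 2 farthest tumours these were 0.591 and 0.640, and on the flow cells 0.739 and 0.778 in AB1 and 0.789 and 0.714 in Renca. No relation of Rel with Nfkb1 or Rela was detected in Renca, with r = -0.08 and -0.11 (permutation p = 0.702 and 0.614), and neither pair passed in AB1. Whether r differed between the tumours was not tested.

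**Figure D4:**
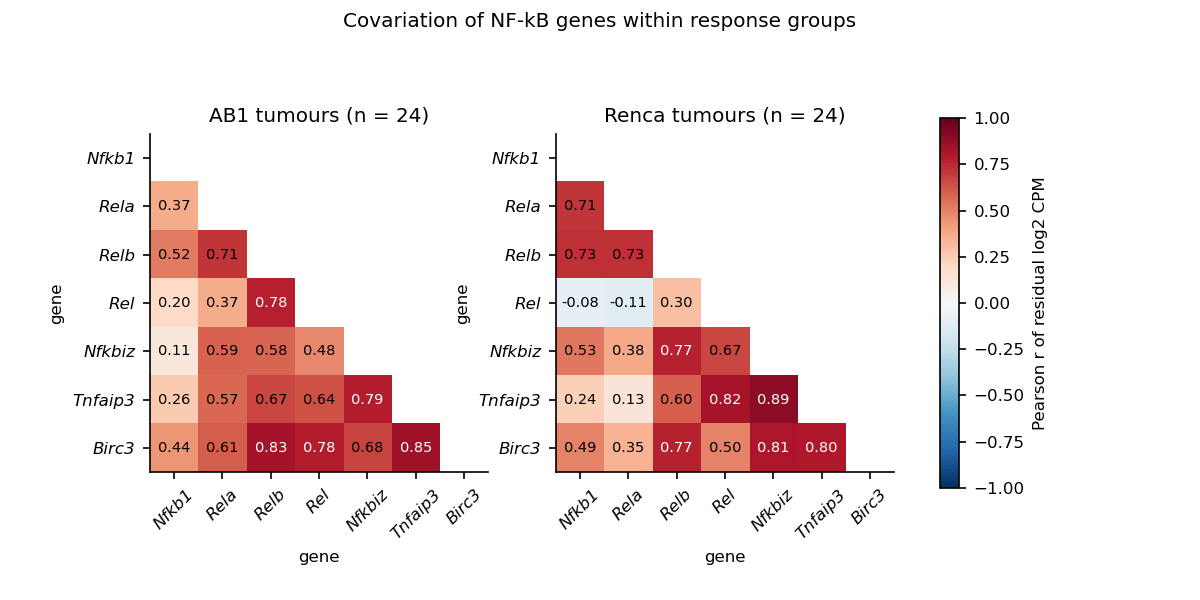
Pearson's r between the residual log2 CPM of each pair of the 7 genes after response and flow cell were removed, for 24 AB1 tumours (left) and 24 Renca tumours (right), with colour from -1 (blue) to 1 (red). Nfkbiz, Tnfaip3 and Birc3 have r with one another from 0.68 to 0.85 in AB1 and from 0.80 to 0.89 in Renca. They are not alone in this in AB1, where Relb, Rel and Birc3 have r from 0.78 to 0.83, against 0.30 to 0.77 in Renca. Rel with Nfkb1 or Rela in Renca gives the only values below 0.

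Over the same residuals, the genes most like each NF-kB gene were found among 10921 genes by the mean of the AB1 and Renca r (24 tumours each). These r values are descriptions, and the points share their libraries and depths. Birc3 was most like Il2rg, the common cytokine receptor chain (0.92), Malt1, a protease of antigen receptor signalling to NF-kB (0.91), and Ptprc, which encodes CD45 and is itself in the leukocyte list (0.90). Tnfaip3 was most like Ccrl2 (0.92), Csrnp1 (0.87) and Arid5a (0.86). Nfkbiz was most like Csrnp1 (0.90), Hcar2 (0.88) and Zfp36, which encodes the mRNA-destabilising protein tristetraprolin (0.86). Relb was most like Traf1, a TNF receptor adaptor (0.88), Lacc1 (0.82) and Ier5 (0.82), and Rel was most like the cytokine genes Osm (0.84) and Il1b (0.81) and Btg2 (0.79). Rela was most like Tnip1, a partner of A20 (0.80), Zyx (0.77) and Gnl1 (0.77). Nfkb1 was most like the complement receptor gene C3ar1 (0.81), Pik3r5 (0.80) and Etv3 (0.80). No NF-kB gene of the set was among the 3 most like any other.

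The rest of the pathway was described through 5 lists of 104 genes. The background for the counts of every list is the share of all genes tested. In AB1 responders 29.6% were called higher and 30.1% lower, and in Renca responders 11.6% and 8.01%. The medians over all genes were -0.02 in AB1 and -0.01 in Renca. Among 18 ligands and receptors tested, 16 were higher in AB1 responders and 2 lower, with a median log2 fold change of 1.37, against 8 higher and 1 lower in Renca, with a median of 0.28. The TNF family ligand Ltb was at 1.80 ± 0.24 in AB1 and 0.74 ± 0.15 in Renca (adjusted p = 1.55e-06 and 0.00359), and its relative Lta at 1.92 ± 0.25 and 0.93 ± 0.22 (adjusted p = 1.31e-06 and 0.00646). Tlr4, the receptor for bacterial lipopolysaccharide, was at 0.78 ± 0.09 in AB1 (adjusted p = 5.38e-07) and -0.01 ± 0.04 in Renca (adjusted p = 0.941), and the gap of 0.73 ± 0.10 passed (adjusted p = 2.79e-07). Tlr2 and Il18r1, receptors for microbial lipopeptides and IL-18, were at 1.39 and 1.90 in AB1 and 0.34 and 0.52 in Renca, and all 4 passed. Tnfrsf1b, the TNF receptor of many lymphocytes, was at 0.97 and 0.21, and both passed. The genes that were lower, named after their values were seen, were Tnfrsf11a (-0.51 in AB1) and Il1r1 (-0.19 in AB1 and -0.13 in Renca).

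Of 26 adaptors and kinases, 23 were higher and none lower in AB1 responders (median 0.40), against 10 higher and 1 lower in Renca (median 0.10). Malt1 was at 1.27 ± 0.13 in AB1 and 0.36 ± 0.10 in Renca (adjusted p = 2.97e-07 and 0.0173). Ripk1, a kinase of the TNF receptor complex, was at 0.54 and 0.13, and Traf1 at 0.72 and 0.53, and all 4 passed. Card9, an adaptor of fungal receptors in myeloid cells, moved in opposite directions. It was at 23.3, 32.0 and 44.0 CPM (lowest, median and highest) in AB1 responders against 14.3, 18.3 and 21.6 CPM in AB1 non-responders. In Renca it was at 61.6, 67.8 and 74.1 CPM in responders against 68.8, 75.3 and 79.8 CPM in non-responders. The log2 fold changes were 0.98 ± 0.10 and -0.15 ± 0.03 (adjusted p = 2.97e-07 and 0.00343), and the gap of 1.08 ± 0.10 passed (adjusted p = 3.12e-09).

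Of 19 further IkB genes and negative regulators, 15 were higher and 3 lower in AB1 responders (median 0.67), against 9 higher and 1 lower in Renca (median 0.16). Tnip1 was at 0.87 ± 0.10 and 0.17 ± 0.05, and Cyld, a deubiquitinase that restrains the pathway, at 0.72 ± 0.09 and 0.14 ± 0.03, and all 4 passed. Tax1bp1, an A20 adaptor, and N4bp1 were at 0.65 and 0.84 in AB1 and passed, and at 0.07 and 0.06 in Renca and did not (adjusted p = 0.0781 and 0.499). Both had gaps that passed, 0.52 ± 0.07 and 0.73 ± 0.10 (adjusted p = 1.07e-07 and 2.75e-07). Bcl3, a nuclear IkB protein like Nfkbiz, was at 0.67 ± 0.15 and 0.47 ± 0.12, both of which passed, and its gap of 0.15 ± 0.20 did not (adjusted p = 0.555). Nlrc5, a regulator of MHC class I genes, was at 1.09 and 0.53, and both passed. The lower genes, named after their values were seen, were Otud7b (-0.50 in AB1 and -0.11 in Renca), Traip (-0.35 in AB1) and Commd1 (-0.13 in AB1). Traip stood at -0.15 in Renca and did not pass there (adjusted p = 0.0844), and its gap between the lines did not pass either (adjusted p = 0.0918).

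Of 22 canonical targets tested in each tumour, 19 were higher and 1 lower in AB1 responders (median 1.6), against 11 higher and 1 lower in Renca (median 0.42). The neutrophil chemokine Cxcl1 was at 2.80 ± 0.33 in AB1 (adjusted p = 5.23e-07) and 0.25 ± 0.21 in Renca (adjusted p = 0.419), with a gap of 2.50 ± 0.39 (adjusted p = 2.76e-06). The 7 neutrophil markers summed to 203 to 770.1 CPM in AB1 responders and 42.5 to 256 CPM in AB1 non-responders, and their part in that difference was not tested. The complement gene C3 was at 2.43 ± 0.31 and 0.41 ± 0.08, and Irf1, an interferon-regulated transcription factor gene, at 1.40 ± 0.26 and 0.65 ± 0.15, and all 4 passed. The survival genes Cflar (0.40 and 0.16) and Bcl2a1b (1.59 and 0.40) passed in both tumours, although Bcl2a1b is uncertain because its family holds near-identical copies. Bcl2l1, which encodes the survival protein Bcl-xL, was higher in AB1 responders (0.23 ± 0.09, adjusted p = 0.0259) and lower in Renca responders (-0.31 ± 0.06, adjusted p = 0.00312). The lower gene in AB1, Mmp9 (-1.65 ± 0.36), was named after its value was seen. Of the noncanonical targets, Enpp2, which encodes autotaxin, was the only 1 of 5 higher in AB1 responders (0.51 ± 0.15, adjusted p = 0.00521). That count does not exceed the 29.6% of all genes called higher there. In Renca, Enpp2 (0.51 ± 0.17, adjusted p = 0.0336) and the stromal chemokine Cxcl12 (0.45 ± 0.16, adjusted p = 0.0479) were higher out of 4 tested. The lymphoid chemokines Ccl19 and Cxcl13 did not pass: Ccl19 was at 0.91 ± 0.41 in AB1 (adjusted p = 0.0594), and Cxcl13 at -0.06 ± 0.41 in AB1 and 0.48 ± 0.29 in Renca.

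**Figure D5:**
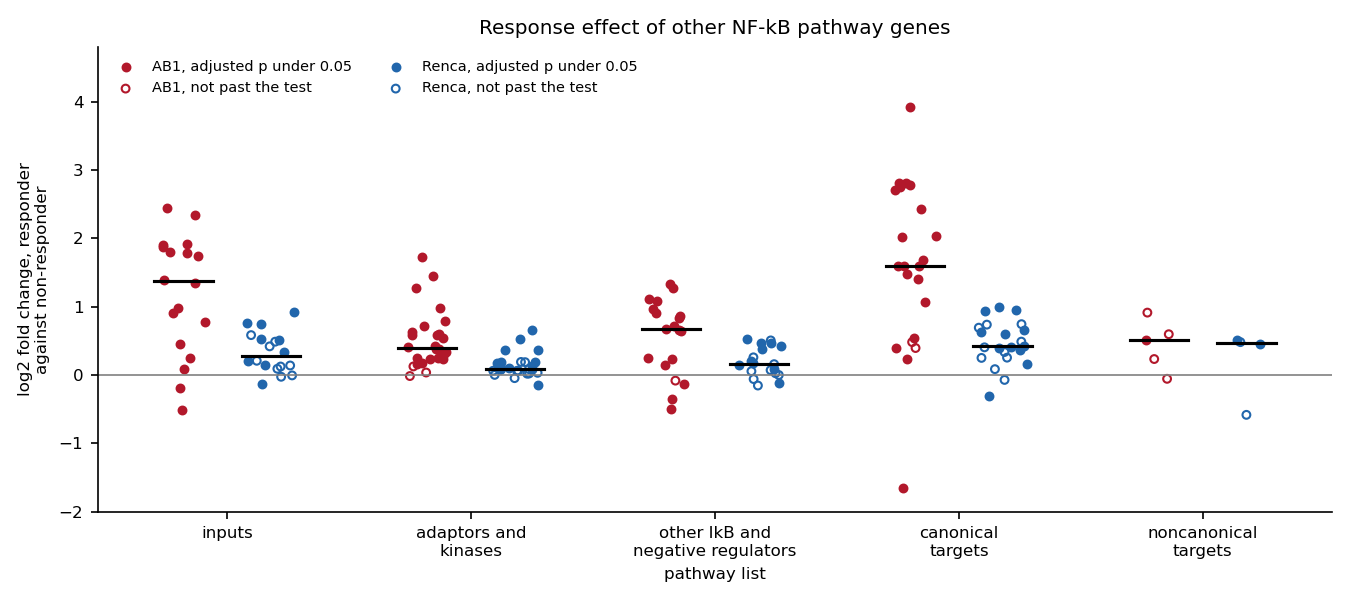
Log2 fold change of responders against non-responders for each gene of the 5 pathway lists (points, filled where the adjusted p is under 0.05; AB1 in red, Renca in blue), with the median of each list as a bar. The AB1 medians of the first 4 lists run from 0.40 to 1.6 and the Renca medians from 0.10 to 0.42.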

How the data were processed

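The authors deposited unnormalised counts, 1 whole number for each gene in each of 48 libraries. HISAT2 2.0.4, StringTie 1.3.0 and bcl2fastq 2.18.0.12 are listed in the submitters' processing notes, which name only human builds (GRCh37, hg19) for a table of mouse identifiers. Which tool counted the reads, with which annotation, mouse build and strand setting, is not given in the sources used here. Positions and exon lengths were taken from GENCODE M21 (GRCm38), which 39461 of 39637 identifiers matched, and reads of overlapping or near-identical genes may have been divided in counting.

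Tests across genes used edgeR 4.0.16 under R 4.3.3 (TMM scaling, filterByExpr, quasi-likelihood F test, Benjamini-Hochberg adjustment over all genes tested, threshold 0.05). Each tumour line was fitted apart with flow cell as a term. The difference between lines in the response effect was fitted over 48 libraries with 4 flow cell levels, and the lines were compared with response as a term. A log2 fold change is responder against non-responder, and its SE is its size over the square root of F. Pairwise relations used log2 CPM with a prior count of 2, residuals after response and flow cell, and two-sided permutation tests with 100000 resamples. For genes of similar pattern a mean log2 CPM of at least 1 was required. Responders and non-responders of the same number came from the same sequencing lane in 12 of 12 pairs of each line. The correlation of their deviations from the group means ran from -0.08 to 0.494 in AB1 (median 0.05) and from -0.12 to 0.249 in Renca (median 0.09), and a fit with the pairs as a block was an alternative. Library totals of 16.4 to 27.8 M counts gave each of the 7 genes at least 609 counts in every library. Each library is 1 mouse.

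The NF-kB genes and all lists were chosen with earlier results of these data known. From each pathway list, the 3 genes of smallest unadjusted p in each line are named, and for each NF-kB gene the 3 most like it, leaving out predicted genes and antigen receptor segments. On simulated data with the real means and library sizes, the AB1 fit recovered 61.6% of genes changed by 0.5 log2 and 92.9% of those changed by 1 (15302 genes, 3 false calls), and the Renca fit 77.8% and 93.7% (15300 genes, 4 false calls). Only 99 and 98 genes were changed in AB1 and 99 and 95 in Renca, far fewer than the real fits called. These rates therefore need not hold for the real data. Alternatives were DESeq2 1.42.0 (its size factors and its Wald test), no low-count filter, the pair block, no flow cell term, each flow cell alone, 1 fit of all libraries, RNA purity or leukocyte covariates, another gene length and each library left out. Leaving out Renca responders 8 and 10, picked for their high Rel and Tnfaip3, was added after the data were seen.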

Additional observations from a re-analysis of the deposited data

Results flagged for a closer look

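For 5 of the 7 NF-kB genes the response effect differed between the tumour lines by the test of the difference itself. Of all 16509 genes tested, 18.5% had an effect more positive in AB1 and 26.6% one more positive in Renca. The AB1 effect minus the Renca effect was 0.25 for Nfkb1, 0.24 for Rela, 0.36 for Relb, 0.36 for Rel and 0.62 for Birc3, on the log2 scale. Each of these 5 genes had an effect above 0 in both lines, but those of Nfkb1 and Rela did not pass in Renca (edgeR, adjusted p = 0.0934 and 0.0794). The mean leukocyte score was 8.36 ± 0.32 in AB1 responders against 7.13 ± 0.33 in non-responders (SD, n = 12). In Renca it was 7.45 ± 0.23 against 7.04 ± 0.21. With the score as a covariate none of the 5 differences passed. In that fit 470 and 678 of all genes passed (more positive in AB1 and in Renca), against 3048 and 4393 without the score. The part of leukocytes in these differences was not tested beyond that fit. Line, day of removal and flow cell cannot be told apart in these differences.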

How the results depend on the processing

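The AB1 response call of all 7 NF-kB genes held under DESeq2, no low-count filter, the replicate block, no flow cell term, RNA purity covariates, 1 fit of all libraries, the second flow cell alone and each library left out. With the first flow cell alone it held for all but Rela. Genes called in AB1 (4559 higher and 4635 lower) numbered 3021 and 2795 with the first flow cell alone, 0 and 0 with the leukocyte covariate, and 4245 and 6531 in 1 fit of all libraries, which moved the split. With the leukocyte covariate 0 of the 7 passed in AB1 and 0 in Renca, and the log2 fold changes of Rela, Relb and Nfkbiz in AB1 were -0.0132, -0.0353 and -0.0665 and those of Nfkb1 and Tnfaip3 in Renca -0.032 and -0.0139. Renca depended on more settings. Genes called there (1793 higher and 1234 lower) numbered 0 and 0 with the first flow cell alone, 874 and 379 with the second, 594 and 226 in 1 fit of all libraries, 135 and 89 with purity covariates and 0 and 0 with the leukocyte covariate. Without Renca responders 8 and 10 they numbered 1372 and 725. Of the 7 NF-kB genes, 5 were higher in Renca, against 0 with the first flow cell alone, 3 in 1 fit of all libraries (Relb and Rel lost, adjusted p = 0.0733 and 0.0743), 0 with purity covariates and 4 without a low-count filter (Rel lost, adjusted p = 0.0578). Leaving out 1 library at a time, Rel was lost in Renca in 13 of 24 fits (log2 fold change 0.25 to 0.36, adjusted p from 0.016 to 0.0752), and the other 4 were kept in every fit.

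The replicate block gave 4526 higher and 4447 lower in AB1, 1693 and 1053 in Renca, and 3066 and 4281 for the difference between lines. It changed no other call of the 7 genes than that of Rel in Renca. For the difference between lines (3048 more positive in AB1 and 4393 in Renca), the leukocyte covariate left 470 and 678 genes and 0 of the 7. There Relb stood at -0.0882, Rel at -0.0438, Nfkbiz at -0.49, Tnfaip3 at -0.46 and Birc3 at -0.0541. Without Renca responders 8 and 10 the genes numbered 3718 and 3206, and without responder 8 alone Tnfaip3 passed (0.64, adjusted p = 0.0283). Rel was lost from it without a low-count filter (adjusted p = 0.0769). Between lines, 3 of the 7 were higher in AB1 and 1 in Renca among non-responders alone (38.3 and 38.1% of all genes). With the leukocyte covariate 3 were higher in AB1 and 2 in Renca, against 6608 and 6508 of all 16509 genes. Rela stood at 0.0938 among responders alone, and Rel at -0.16 among non-responders alone and -0.21 with the covariate. With response alone removed, 31 of the 42 relations passed. With the longest transcript as length the shares of Nfkb1, Rela, Relb and Rel were 45.2, 32.2, 16.6 and 5.95%. The cause of these changes was not tested. Each of the 7 genes had at least 609 counts in every library.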
